A study of Homo sapiens with 6 samples.

Results

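The genes described here are 10 classical markers of the epithelial-mesenchymal transition (EMT), namely CDH1, EPCAM, CDH2, VIM, FN1, ZEB1, ZEB2, SNAI1, SNAI2 and TWIST1. They were found by gene symbol in a table of 58735 genes. Of the 10, 7 had enough counts for a test, as did 17574 genes in all, and the other 3 had 0 counts in every library. RNA was sequenced from cultured cells of a human colorectal cancer line, in 3 libraries of cells with CNOT7 knockdown and 3 libraries of control cells. The study made its knockdown lines with a lentiviral vector that carries an shRNA. The control cells are labelled shNc in the counts and Nc in the titles, without further explanation. CNOT7 is a deadenylase subunit of the CCR4-NOT complex, which shortens the poly(A) tails of mRNAs and so promotes their decay. The cells in both groups received no treatment, and the comparison asks which transcripts differ when CNOT7 is low. The deposited labels name the line sw480, whereas the text of the study names HCT116 for the RNA sequencing, and both lines are colorectal cancer cells. The labels do not say which shRNA the knockdown cells carried, nor whether the 3 libraries of a group came from separate cultures, so the p-values below measure the spread between these libraries, which may be technical. Neither the labels nor the methods say whether a line was 1 clone or a pool.

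EMT is the change by which epithelial cells loosen their junctions and take on mesenchymal traits such as a vimentin cytoskeleton and a fibronectin matrix. E-cadherin, encoded by CDH1, holds neighbouring epithelial cells together, and its loss is the hallmark of the transition. The zinc-finger proteins of the SNAI and ZEB families and the bHLH protein TWIST1 bind E-box sequences in DNA and repress epithelial genes, CDH1 among them. Carcinoma cell lines often express epithelial and mesenchymal markers side by side.

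The total counts per library lay between 23788451 and 25982493 in the control group and between 27523812 and 29104872 in the knockdown group, so that every knockdown library was deeper than every control library. Levels are given in CPM, the counts of a gene per 1000000 counts of its library, with totals scaled by TMM. CNOT7, the targeted gene, had 169.1, 191.1 and 175.8 CPM in the control libraries and 43.4, 47.2 and 38.6 CPM in the knockdown libraries. The groups did not overlap, and the log2 fold change was -2.05 (SE 0.0734, adjusted p = 2.64e-12, edgeR). The cells expressed epithelial genes, among them KRT8, a simple epithelial keratin, at 2750 CPM in the control libraries. Of 15 markers of colorectal epithelium, 9 reached a mean of 1 CPM, while CDX1, KRT20, LGALS4 and CEACAM5 were at or near 0. These 15 markers together had 5756 to 6205 CPM in the control and 5354 to 5943 CPM in the knockdown libraries. Most of that sum came from KRT8, KRT18 and KRT19, at 2750, 2025 and 720.2 CPM in the control libraries. Of the 11 tested markers, 2 were higher and 2 lower in edgeR, which is 18.2% each way. Over all tested genes, 13.3% were higher and 11.9% lower. At an unadjusted p under 0.05, 5 markers were higher and 2 lower, and in DESeq2 1 was higher and 2 lower. Among the 15 markers, VIL1, a microvillus protein gene, rose from 19.9 to 32.7 CPM (log2 fold change 0.72, adjusted p = 2.93e-05, edgeR). The keratin gene KRT19 fell from 720.2 to 636.6 CPM (log2 fold change -0.18, adjusted p = 0.0212, edgeR). GPA33 was also higher (log2 fold change 2.94, adjusted p = 0.00304, edgeR), but with only 1, 4 and 0 counts against 16, 18 and 13. KRT8 was also lower (log2 fold change -0.15, adjusted p = 0.0414, edgeR), though its groups overlapped. These changes were named after their values were seen. Of 9 fibroblast markers, COL3A1, DCN and FAP had 0 counts in every library. COL1A1 (8.43 and 9.15 CPM in control and knockdown) and PDGFRB (1.44 and 1.74 CPM) were above 1 CPM. The 9 together had 9.24 to 10.9 CPM in the control and 10.6 to 12.1 CPM in the knockdown libraries, and 0 were higher or lower in edgeR, at an unadjusted p under 0.05 or in DESeq2. Among 5 endothelial markers, VWF had 1.76 and 2.56 CPM, and none was called in edgeR or DESeq2, with 1 higher at an unadjusted p under 0.05. The 5 together had 1.72 to 2.33 CPM in the control and 2.89 to 3.59 CPM in the knockdown libraries. Among 6 leukocyte markers, CD14 had 2.30 and 2.84 CPM, PTPRC was at or near 0, and 1 of the 3 tested was higher in edgeR and 0 in DESeq2. These 6 together had 2.62 to 4.47 CPM in the control and 4.38 to 5.04 CPM in the knockdown libraries. The part of such transcripts in the results below was not tested.

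Sequences tied to the ZEB1 arm of the EMT network are shown first, since ZEB1 is both a repressor that binds E-boxes and a target of the miR-200 family. The most 5′ of the RefSeq start sites of ZEB1 at hand (GRCh38.p14) is preceded by the 250 bases at chr10:31318167-31318416, forward strand. The match to the E-box motif CAGGTG, in capitals, begins at position -57 from the start site. Other forms of the E-box were not searched. 
ZEB1 upstream: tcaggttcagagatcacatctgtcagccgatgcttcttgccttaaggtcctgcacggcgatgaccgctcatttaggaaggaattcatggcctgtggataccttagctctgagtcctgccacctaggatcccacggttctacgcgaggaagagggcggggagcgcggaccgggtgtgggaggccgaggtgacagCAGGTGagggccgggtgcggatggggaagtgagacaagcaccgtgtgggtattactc

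The motif searched was CAGGTG, and CACCTG as the same motif on the other strand. Of 35116 RefSeq windows of 300 bases, from 250 before to 50 after a start site, 20.6% held it. Windows of 5 members were searched, and 2 of their 12 windows held the motif, both of them among the 7 windows of ZEB1. The second of these held it 3 times. No match was found in the windows of CDH2, VIM, FN1 and ZEB2. CDH1, EPCAM, SNAI1, SNAI2 and TWIST1 were not searched here. A match is a string of letters in a window and not a bound site.

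The miR-200 family silences ZEB1 and ZEB2 in epithelial cells, and ZEB proteins in turn repress the miR-200 genes. Its 5 mature miRNAs, from RefSeq, fall into 2 groups by their seed, bases 2 to 8, in capitals. This family was added after its values were seen.
hsa-miR-141-3p: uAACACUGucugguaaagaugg
hsa-miR-200a-3p: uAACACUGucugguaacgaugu
hsa-miR-200b-3p: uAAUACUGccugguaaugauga
hsa-miR-200c-3p: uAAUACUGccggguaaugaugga
hsa-miR-429: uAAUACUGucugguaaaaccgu

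The seed of hsa-miR-141-3p and hsa-miR-200a-3p was AACACUG, and that of hsa-miR-200b-3p, hsa-miR-200c-3p and hsa-miR-429 was AAUACUG. Libraries of this kind count fragments of longer transcripts and do not measure mature miRNAs. On the 3 hairpin genes of the chromosome 1 cluster, MIR200A, MIR200B and MIR429, the counts lay between 2 and 27 per library. On the 2 hairpins and the host transcript of the chromosome 12 cluster, MIR200C, MIR141 and MIR200CHG, they lay between 0 and 7. Counts on both clusters were thus few. The hairpin genes are short, and no host transcript of the chromosome 1 cluster was read, so the level of that cluster was not measured. MIR200B had a log2 fold change of 0.45 (SE 0.44, adjusted p = 0.499, edgeR) and MIR429 one of 0.32 (SE 0.36, adjusted p = 0.559), and the other 4 had too few counts for a test.

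With CNOT7 knockdown, the epithelial cadherin gene CDH1 and the repressor gene SNAI1 rose, and the mesenchymal genes VIM and FN1 fell. EPCAM, ZEB1 and SNAI2 did not pass the threshold of an adjusted p of 0.05, and CDH2, ZEB2 and TWIST1 had no counts. Of the 7 tested markers, 4 were thus called, 2 higher and 2 lower, against 25.2% of all tested genes called in either direction, 13.3% higher and 11.9% lower. The groups of 3 libraries did not overlap in 5 of the 7 markers, against 38.8% of all tested genes. The markers were chosen with earlier results of these data known, so these shares describe them and test nothing. The median log2 fold change was 0.05 over the 7 markers and 0.00 over all tested genes. The calls took in 1 of the 2 epithelial adhesion genes, both mesenchymal structural genes with counts and 1 of the 3 repressor genes with counts. In bulk RNA, fewer cells expressing a gene and less RNA per cell cannot be told apart.

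**Figure D1:**
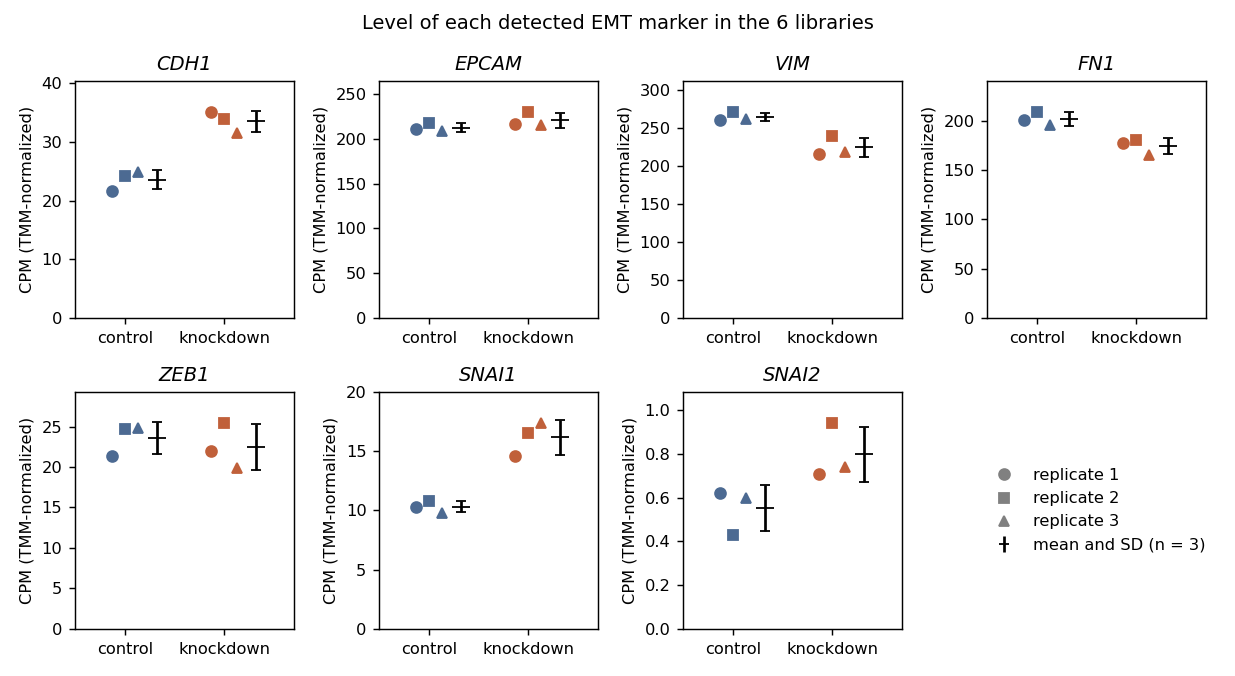
Level of each detected EMT marker in TMM-normalized CPM (vertical axis, from 0, its own scale in each panel) in the 3 control and 3 knockdown libraries, with the mean and SD of each group. CDH1 and SNAI1 lie higher in every knockdown library, VIM and FN1 lie lower, and the groups of EPCAM and ZEB1 overlap.

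Among the epithelial markers, CDH1 (ENSG00000039068) lies on chromosome 16 of GRCh38, from 68737225 to 68835548 on the forward strand. Its counts were 558, 564 and 622 in the control libraries and 989, 933 and 940 in the knockdown libraries. In CPM these were 21.7, 24.2 and 24.8 against 35.1, 33.8 and 31.6. The lowest knockdown library was well above the highest control library. The mean rose from 23.6 ± 1.65 CPM to 33.5 ± 1.79 CPM (SD, n = 3 each). This was a 1.42-fold rise (95% interval 1.26 to 1.59), with a log2 fold change of 0.51 (SE 0.0794, adjusted p = 1.55e-04, edgeR). Of the exonic bases of CDH1, 5.62% lie under an antisense gene, AC099314.1, which had a single count in 1 library.

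EPCAM (ENSG00000119888, chromosome 2, 47345158 to 47387601, forward strand) encodes a homophilic adhesion molecule of the epithelial surface that is widely used to recognise carcinoma cells. It had 211.3, 217.5 and 208.0 CPM in the control libraries and 216.6, 229.7 and 214.7 CPM in the knockdown libraries. The ranges overlapped, since knockdown replicates 1 and 3 lay within the control range. The log2 fold change was 0.05 (SE 0.0521, adjusted p = 0.5, edgeR), and its 95% interval ran from 0.962-fold to 1.12-fold. A rise of the size fitted for CDH1 lay outside that interval.

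Of the mesenchymal markers, VIM (ENSG00000026025, chromosome 10, 17228259 to 17237593, forward strand) encodes vimentin, the intermediate filament protein of mesenchymal cells. It had 261.1, 271.2 and 262.0 CPM in the control libraries and 215.3, 239.3 and 219.1 CPM in the knockdown libraries. All 3 knockdown libraries were below all 3 control libraries, with knockdown replicate 2 the nearest. The mean went from 264.8 ± 5.58 to 224.6 ± 12.9 CPM (SD, n = 3 each), a log2 fold change of -0.24 (SE 0.0544, adjusted p = 0.00381, edgeR), or 0.85-fold (95% interval 0.78 to 0.92). Antisense genes cover 24.4% of the exonic bases of VIM. VIM-AS1 had 51 to 94 counts per library against 6068 to 6711 for VIM, and AL133415.1 had none. VIM-AS1 had a log2 fold change of 0.04 (SE 0.198, adjusted p = 0.9).

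FN1 (ENSG00000115414, chromosome 2, 215360440 to 215436172, reverse strand) encodes fibronectin, a glycoprotein of the extracellular matrix. Its levels were 200.5, 208.7 and 195.1 CPM in the control libraries and 177.7, 180.5 and 164.8 CPM in the knockdown libraries. The groups did not overlap, and knockdown replicate 3 was the lowest. From 201.4 ± 6.86 to 174.3 ± 8.36 CPM (SD, n = 3 each), the log2 fold change was -0.21 (SE 0.0552, adjusted p = 0.01, edgeR), or 0.87-fold (95% interval 0.80 to 0.94). FN1 shared no exonic base with another annotated gene. Its call was the least secure of the 4, with an adjusted p of 0.0457 without knockdown replicate 3 and of 0.0474 with the trend of fold change with abundance removed.

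CDH2 (ENSG00000170558, chromosome 18, 27950966 to 28177446, reverse strand) encodes N-cadherin, the cadherin that mesenchymal cells carry in place of E-cadherin. It had 0 counts in every library. A count of 0 allows up to 3 counts, or 0.103 to 0.126 CPM by library total, and this limit covers counting error only. No rise of CDH2 was thus seen in either group at a depth where CDH1 gave at least 558 counts.

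The repressors differed in whether they were expressed. SNAI1 (ENSG00000124216, chromosome 20, 49982999 to 49988886, forward strand) encodes SNAIL, a short-lived repressor protein of CDH1. It had 10.3, 10.8 and 9.82 CPM in the control libraries and 14.5, 16.6 and 17.4 CPM in the knockdown libraries. Every knockdown library was higher than every control library, and in counts the groups were 246 to 265 against 410 to 518. The mean rose from 10.3 ± 0.488 to 16.2 ± 1.46 CPM (SD, n = 3 each), 1.57-fold (95% interval 1.36 to 1.82), with a log2 fold change of 0.65 (SE 0.101, adjusted p = 1.32e-04, edgeR). CDH1 and a gene for its repressor were therefore both higher in the same 3 libraries. SNAI1 shared no exonic base with another gene.

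SNAI2 (ENSG00000019549, chromosome 8, 48917604 to 48921740, reverse strand) encodes SLUG, the close relative of SNAIL. It was barely expressed, with 16, 10 and 15 counts in the control libraries and 20, 26 and 22 in the knockdown libraries. In CPM these were 0.623, 0.430 and 0.598 against 0.710, 0.942 and 0.739. The groups did not overlap, yet the counts were too few for a call. The log2 fold change was 0.52 (SE 0.337, adjusted p = 0.286, edgeR), with a 95% interval from 0.877-fold to 2.35-fold. The 1.57-fold rise of SNAI1 lay inside that interval.

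ZEB1 (ENSG00000148516, chromosome 10, 31318495 to 31529814, forward strand), whose upstream CAGGTG motif is shown above, was expressed at about the same CPM as CDH1 in the control cells. It had 21.4, 24.7 and 24.9 CPM in the control libraries and 22.0, 25.5 and 19.9 CPM in the knockdown libraries. The knockdown group held both the highest and the lowest library. The log2 fold change was -0.07 (SE 0.0968, adjusted p = 0.631, edgeR), with a 95% interval from 0.825-fold to 1.09-fold. ZEB1-AS1, which runs the other way and shares 366 exonic bases (4.23%) with ZEB1, had 146, 138 and 145 counts in the control libraries and 225, 290 and 235 in the knockdown libraries. This antisense gene rose, with a log2 fold change of 0.60 (SE 0.132, adjusted p = 0.00292, edgeR). The sources used here do not say whether counting used strand, so reads in the shared bases cannot be assigned to either gene with certainty.

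ZEB2 (ENSG00000169554, chromosome 2, 144364364 to 144524583, reverse strand), the paralog of ZEB1, and TWIST1 (ENSG00000122691, chromosome 7, 19020991 to 19117672, reverse strand) had 0 counts in every library. The same limit of 0.103 to 0.126 CPM holds for both. ZEB2-AS1 had 0 counts as well. Of the 5 EMT repressor genes, 2 were therefore expressed above 2 CPM in these cells, 1 was at the edge of detection and 2 were not detected.

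**Figure D2:**
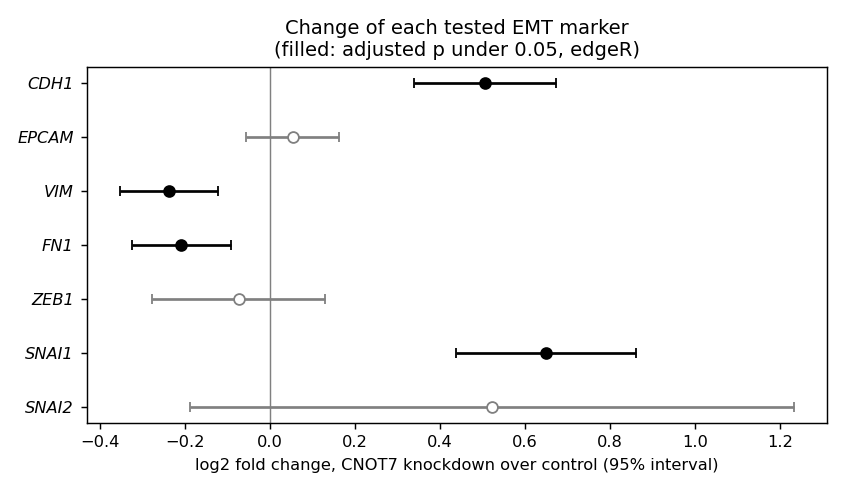
Log2 fold change of the 7 tested EMT markers, knockdown over control (horizontal axis), with 95% intervals from the edgeR fit. Filled points are markers with an adjusted p under 0.05. CDH1 and SNAI1 lie right of 0, VIM and FN1 left of 0, and the intervals of EPCAM, ZEB1 and SNAI2 include 0.

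Replicate spread set the precision of the abundant markers, and counting error that of SNAI2. In the control group the coefficient of variation of VIM was 2.11%, against 1.24% from counting alone, and that of EPCAM was 2.28% against 1.38%. In the knockdown group the same markers varied more, by 5.75% and 3.71%. For SNAI2 the variation was 19.1% in the control group, below the 27.1% that counting alone gives. With 12 alternative settings, including each library left out in turn, CDH1, SNAI1, VIM and FN1 kept their call and direction in all of them.

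To compare the markers with each other, levels were divided by the gene length in the table, which equalled the exonic bases of GENCODE release 29, and are given as CPM per kilobase. In the control cells EPCAM was highest at 84.3 ± 1.92, followed by VIM at 51.3 ± 1.08 and FN1 at 11.6 ± 0.396 CPM per kilobase (SD, n = 3 each). SNAI1 came next at 6.11 ± 0.29, ahead of CDH1 at 3.82 ± 0.267 and ZEB1 at 2.73 ± 0.227. SNAI2 was last at 0.162 ± 0.0309 CPM per kilobase. No neighbours in this order overlapped over the 3 control libraries, which does not cover error in the gene lengths. In CPM, before division by length, VIM was above EPCAM, at 264.8 against 212.3 in the control libraries. Among the tested genes EPCAM stood at the 98.1st and VIM at the 96th percentile of level per kilobase, and CDH1 at the 50.5th. The epithelial surface marker EPCAM and the mesenchymal filament gene VIM were thus both among the highest genes of these cells, and CDH1 was near the middle.

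The order was the same in the knockdown cells, but 1 pair of neighbours came together. FN1 had 10.1 ± 0.483 and SNAI1 9.59 ± 0.868 CPM per kilobase (SD, n = 3 each), and their ranges over the 3 libraries overlapped. CDH1 stood at 5.42 ± 0.289, which was 2.09 times ZEB1, compared with 1.40 times in the control cells. The length used covers all annotated exons, so a gene whose cells use a short isoform is understated on this scale.

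**Figure D3:**
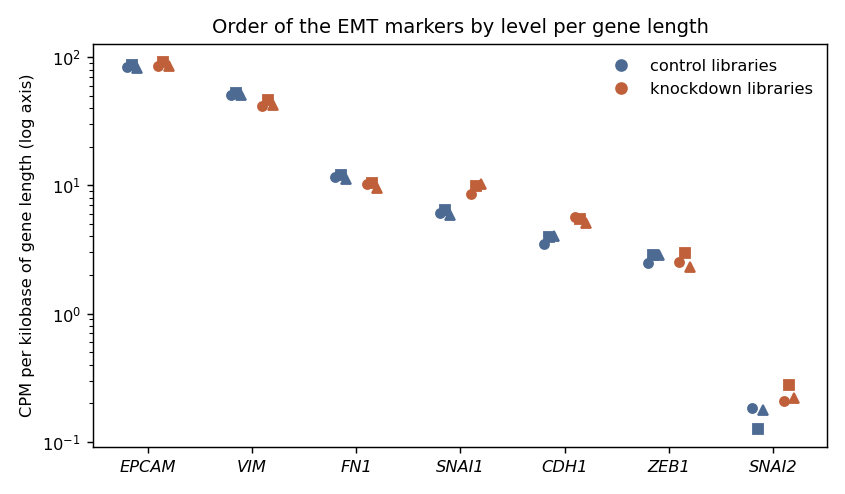
CPM per kilobase of gene length (log axis) of the 7 detected EMT markers, in order of the control level, with 1 point for each of the 3 control and 3 knockdown libraries. EPCAM and VIM lead and SNAI2 is far below the rest, and the FN1 and SNAI1 points of the knockdown libraries meet.

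Ratios between markers within a library do not depend on the scaling of that library. VIM over CDH1 was 14.4, 13.4 and 12.6 in the control libraries and 7.35, 8.48 and 8.31 in the knockdown libraries, per gene length. The mean went from 13.5 ± 0.884 to 8.05 ± 0.61 (SD, n = 3 each), with no overlap. FN1 over CDH1 went from 3.06 ± 0.245 to 1.86 ± 0.049, also with no overlap. EPCAM over CDH1 was also lower, from 22.1 ± 1.66 to 16.2 ± 0.885, so that the 2 epithelial markers did not keep their proportion. EPCAM over VIM was 1.66, 1.64 and 1.63 in the control libraries and 2.06, 1.97 and 2.01 in the knockdown libraries. VIM transcripts nevertheless outnumbered CDH1 transcripts per gene length in every library of both groups.

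**Figure D4:**
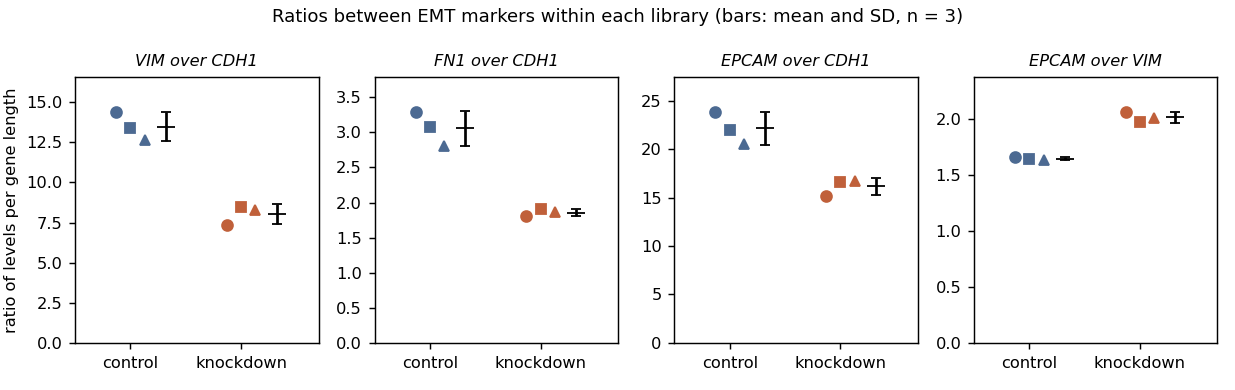
Ratio of levels per gene length between pairs of EMT markers (vertical axis, from 0, its own scale in each panel) in the 3 control and 3 knockdown libraries, with mean and SD. VIM over CDH1, FN1 over CDH1 and EPCAM over CDH1 are lower in every knockdown library, and EPCAM over VIM is higher.

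The same fit was read for 6 lists of genes that act with these markers, with counts only and no test of a list. These lists too were chosen with earlier results of these data known. Over all tested genes, 13.3% were higher and 11.9% lower. Among 13 other transcription factors tied to EMT, 11 were tested, of which 2 were higher and 2 lower, with a median log2 fold change of -0.02. This was 18.2% of the tested factors in each direction. The 2 higher became 0 with DESeq2 or cyclic loess offsets, 1 with no filter, 0 without control replicates 2 or 3 or knockdown replicate 3, and 1 without any of the other libraries. FOXQ1, a forkhead factor that promotes EMT in colorectal cancer cells, fell from 227.1, 208.8 and 228.5 CPM to 149.5, 132.7 and 166.8 CPM. Its log2 fold change was -0.57 (SE 0.0708, adjusted p = 1.56e-05, edgeR). SOX4 fell by 0.36 on the log2 scale (SE 0.0676, adjusted p = 8.49e-04). SNAI3, the third SNAI gene, had a log2 fold change of 0.64 (SE 0.206, adjusted p = 0.0309) at 1.65 and 2.58 CPM. The call of SNAI3 was lost in 6 of the 12 alternatives.

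Of 15 regulators that maintain the epithelial state, 12 were tested, with 4 higher, 1 lower and a median log2 fold change of 0.13. The shares were 33.3% and 8.33%, against 13.3% and 11.9% of all tested genes. The 1 lower became 0 without control replicate 3, and 2 without knockdown replicate 2 or with cyclic loess offsets. FOXA2, a forkhead factor of endodermal epithelium, rose from 9.65, 10.2 and 10.3 CPM to 15.5, 14.6 and 17.2 CPM, a log2 fold change of 0.65 (SE 0.0991, adjusted p = 1.12e-04, edgeR). The epithelial ETS factors ELF3 and EHF rose by 0.56 (SE 0.0978, adjusted p = 4.20e-04) and 0.45 (SE 0.0893, adjusted p = 0.00136) on the log2 scale. The pair of epithelial splicing regulators went opposite ways. ESRP1 rose, with a log2 fold change of 0.27 (SE 0.0643, adjusted p = 0.00536), and ESRP2 fell, with one of -0.26 (SE 0.0724, adjusted p = 0.0137), a call that was lost without control replicate 3 (adjusted p = 0.0941). ESRP1 was named here after its value was seen. GRHL2, an activator of CDH1 in many epithelia, had 0, 3 and 1 counts in the control and 0, 2 and 0 counts in the knockdown libraries. These counts are too few to compare, and GRHL2 was not tested. It was also named after its value was seen.

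All 19 genes of the list of cadherin-catenin and EPCAM partners were tested, with 2 higher, 3 lower and a median log2 fold change of -0.01. The shares of 10.5% and 15.8% were near the 13.3% and 11.9% of all tested genes. Without knockdown replicate 2, 5 were lower. The catenin genes did not pass the test. Beta- and alpha-catenin, encoded by CTNNB1 and CTNNA1, link E-cadherin to actin, and p120-catenin, encoded by CTNND1, binds E-cadherin near the membrane and controls its stability. CTNNB1 had a log2 fold change of 0.03 (SE 0.0495, adjusted p = 0.695, edgeR), CTNNA1 one of 0.03 (SE 0.0469, adjusted p = 0.73) and CTNND1 one of -0.02 (SE 0.0488, adjusted p = 0.829). These catenins were named after their values were seen. CDH3, which encodes P-cadherin, rose with CDH1, from 29.2, 26.4 and 26.6 CPM to 39.6, 33.8 and 39.1 CPM, a log2 fold change of 0.45 (SE 0.0804, adjusted p = 4.67e-04).

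The nectins, adhesion molecules of the same junctions, moved in both directions. NECTIN1 rose by 0.45 (SE 0.0587, adjusted p = 2.30e-05, edgeR), while NECTIN3 fell by 0.93 (SE 0.137, adjusted p = 8.17e-05) on the log2 scale. NECTIN2 had a log2 fold change of -0.21 (SE 0.0587, adjusted p = 0.0131), and lost its call in 3 of the 12 alternatives.

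Of 26 mesenchymal and matrix genes, 22 were tested, and they did not move as one, with 7 higher, 6 lower and a median log2 fold change of 0.03. The shares were 31.8% and 27.3%, against 13.3% and 11.9% of all tested genes. Over the 12 alternatives the number higher ranged from 7 to 8 and the number lower from 4 to 9. SPARC, a matrix glycoprotein, rose from 19.9, 20.2 and 18.7 CPM to 37.6, 36.8 and 36.8 CPM, a log2 fold change of 0.92 (SE 0.0739, adjusted p = 9.48e-08, edgeR). The collagen gene COL5A1 (log2 fold change 1.28, SE 0.287, adjusted p = 0.00327) and the gelatinase gene MMP9 (0.72, SE 0.121, adjusted p = 3.18e-04) were also higher, COL5A1 at only 0.624 and 1.51 CPM. The rises in this list were thus opposite in direction to VIM and FN1.

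THBS1, encoding thrombospondin, fell from 40.2, 44.9 and 41.1 CPM to 25.5, 24.5 and 26.1 CPM, a log2 fold change of -0.73 (SE 0.0734, adjusted p = 1.46e-06, edgeR). S100A4, a calcium-binding protein gene linked to motility, fell by 0.42 (SE 0.0612, adjusted p = 6.82e-05) on the log2 scale. TAGLN, an actin-binding protein gene, had a log2 fold change of -0.55 (SE 0.184, adjusted p = 0.0362) and lost its call in 5 of the 12 alternatives.

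TGF-β is the best-known inducer of EMT. All 19 genes of its signalling list were tested, with 5 higher, 3 lower and a median log2 fold change of 0.01. The shares were 26.3% and 15.8%, against 13.3% and 11.9% of all tested genes. The 5 higher became 2 without any 1 library other than knockdown replicate 2, 2 with no filter on low counts and 3 with DESeq2 or RLE factors, and the 3 lower became 5 without knockdown replicate 2. The receptor genes went opposite ways, TGFBR1 with a log2 fold change of 0.28 (SE 0.0673, adjusted p = 0.00601, edgeR) and TGFBR2 with one of -0.30 (SE 0.0632, adjusted p = 0.00224). The ligand gene TGFB2 fell by 0.53 (SE 0.13, adjusted p = 0.0063) and the inhibitory SMAD7 by 0.44 (SE 0.0776, adjusted p = 4.88e-04) on the log2 scale. LTBP1, which binds latent TGF-β, rose by 0.79 (SE 0.154, adjusted p = 0.00107). SMAD6 had a log2 fold change of 0.29 (SE 0.102, adjusted p = 0.0461), a call that was lost in 9 of the 12 alternatives. SMAD4 was low, at 2.04 CPM in the control and 2.26 CPM in the knockdown libraries (adjusted p = 0.633, edgeR). In the same groups SMAD2 had 56.8 and 59.5 CPM, and SMAD3 134.5 and 135.3 CPM. SMAD2, SMAD3 and SMAD4 were named after their values were seen.

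Among 21 genes for corepressors that SNAIL and ZEB proteins recruit, and for proteins that control SNAIL or E-cadherin turnover, 20 were tested. In edgeR 0 were higher and 3 lower, with a median log2 fold change of -0.06. The shares were 0% and 15%, against 13.3% and 11.9% of all tested genes. Without knockdown replicate 2, 6 were lower. At an unadjusted p under 0.05, 0 were higher and 5 lower, and in DESeq2 0 were higher and 4 lower. The deacetylase gene HDAC2 had a log2 fold change of -0.26 (SE 0.0632, adjusted p = 0.00541, edgeR). GSK3B, the kinase that marks SNAIL for degradation, had one of -0.23 (SE 0.0543, adjusted p = 0.00417), and the corepressor gene CTBP1 one of -0.23 (SE 0.0682, adjusted p = 0.0217). CTBP1 lost its call in 4 of the 12 alternatives.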

How the data were processed

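RNA was measured in 6 libraries, 3 of control and 3 of CNOT7 knockdown cells, grouped by their titles. Libraries were made with the NEBNext Ultra RNA kit. The authors deposited unnormalized counts for each gene, with a gene length in bases. The submitters' processing notes name CASAVA 1.8, fastp, HISAT2 2.0.5, featureCounts 1.5.0-p3 and DESeq2 1.20.0 on GRCh38, without their order or role. Strandedness of counting is not given in the sources used here. Gene IDs and positions of all 58735 genes matched GENCODE release 29, and 0 columns belonged to other samples. The deposited titles write Nc where the count table writes shNc.

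Counts were analysed with edgeR 4.0.16 in R 4.3.3. Genes were filtered with filterByExpr, which left 17574, normalized with TMM and tested by quasi-likelihood F-test between the groups, without a replicate term. P-values were adjusted over all tested genes (Benjamini-Hochberg, threshold 0.05). SE is the absolute log2 fold change over the square root of F, and 95% intervals use the t distribution with the degrees of freedom of the fit. Counts of different replicates differed beyond sampling noise in every pair. With 3 libraries per group, an exact permutation test of 1 gene cannot go below p = 0.1 (two-sided), so none was used.

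Alternatives were DESeq2 1.42.0, RLE factors, no filter, a replicate block, a minimum of 10 counts per gene and library, cyclic loess offsets (limma 3.58.1), and each library left out in turn, and for levels CPM by library total. The steps were tested on simulated data. All members and the targeted gene were named. From each list up to 3 rises and 3 falls were named, those largest among called genes with groups that do not overlap, with overlapping transcripts and markers of other cell types from 1 CPM. The markers and the lists were chosen with earlier results of these data known. CDH1-AS1 and TWIST1-AS1, also listed, matched no symbol. Some genes of the lists enter the counts but are not reported here by name. Tables and figures used Python 3.11.15, pandas 2.3.3, numpy 2.4.6 and matplotlib 3.10.9.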

Additional observations from a re-analysis of the deposited data

How the results depend on the processing

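Over the 12 alternatives, 2 EMT markers were higher and 2 lower in each. The log2 fold changes of the 7 tested markers kept their direction and their side of the threshold, with 1 exception. The exception was ZEB1, whose log2 fold change of -0.07 became 0.00305 (adjusted p = 0.987) without knockdown replicate 3. The log2 fold changes ranged from 0.45 to 0.54 for CDH1 (highest adjusted p 0.00364), from 0.59 to 0.71 for SNAI1 (0.00144), from -0.29 to -0.17 for VIM (0.0311) and from -0.24 to -0.15 for FN1 (0.0474). All 14 levels per gene length moved by less than 1 SD with library totals in place of TMM. The lists were less stable. The 2 other EMT factors that were higher became 0 with DESeq2, 1 with no filter, 0 with cyclic loess offsets, and 0 to 1 with any library left out (1 without control replicate 1 or knockdown replicates 1 or 2, and 0 otherwise). The 1 lower epithelial regulator became 2 with cyclic loess offsets, and 0 (without control replicate 3) to 2 (without knockdown replicate 2) with a library left out. The 3 lower adhesion partners ranged from 2 to 5 (without knockdown replicate 2). The 6 lower mesenchymal and matrix genes ranged from 4 (with cyclic loess offsets or without knockdown replicate 1) to 9 (with a replicate block). The 5 higher TGF-β genes became 3 with DESeq2 or RLE factors and 2 with no filter, and ranged from 2 to 5 with a library left out, with 2 in each case except knockdown replicate 2. Without that library, 5 TGF-β genes (range 3 to 5) and 6 corepressor or turnover genes (range 2 to 6) were lower, in place of 3 each. The cause of these moves was not tested. Among the 28 genes that the naming rule took from the lists, 21 kept their call in every alternative.

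Whether the replicate numbers pair the libraries was not settled by these values. The deviations of same-numbered libraries from their group means correlated at 0.0228, 0.153 and -0.0153, and 1 of the 3 control libraries correlated best with its own number. With a replicate block the calls over all genes went from 2329 higher and 2095 lower to 3202 and 3306, the lower epithelial regulators to 3, the lower TGF-β genes to 6 and the lower corepressor or turnover genes to 7. The block changed no call of an EMT marker. Without control replicate 3 the calls over all genes were 1663 higher and 1367 lower.

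Depth limits SNAI2, with 10 to 26 counts per library, and the markers at 0 counts.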
